A study of Mus musculus with 11 samples.

Results

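Hnf4a and Hnf4g, the genes of the hepatocyte nuclear factor 4 transcription factors, were followed with all their probe sets across 4 compartments of the fetal mouse kidney and ureter. The annotation of the array gave 4 probe sets to Hnf4a and 3 to Hnf4g, which makes 7 of the 45101 probe sets and 2 of the 18193 gene symbols with a probe set of their own. The mice were wild-type CD-1, an outbred stock, at E15.5 (Theiler stage 23) and of unknown sex per the labels, with no treatment or engineered allele. Laser capture microdissection of frozen tissue gave early proximal tubule (EPT, 3 arrays), cortical collecting duct (CCD, 2 arrays), ureteral smooth muscle (USM, 3 arrays) and urothelium (URO, 3 arrays), the lining epithelium of the ureter. Every array held RNA of a pool, per the labels about 50 sections out of 5 kidneys, amplified in 2 rounds and labelled with biotin. The series aimed at expression profiles of discrete kidney elements, which here sets EPT against the mean of the other compartments and against each single one. The labels do not say if pools came from separate fetuses. The p-values thus reflect only how far these pools differ, which may be technical, and precision is limited by the number of arrays.

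HNF4 proteins are nuclear receptors that bind DNA as homodimers at direct repeats of a hexamer, and they act mainly as activators of transcription. Hnf4a is a central regulator of hepatocyte identity, and in the mouse kidney it is known as a factor of the proximal tubule that is needed for the tubule to mature. Hnf4g is its close paralog, best known from the intestine, where it acts beside Hnf4a, and it is also found in kidney.

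The values are deposited signals, a linear measure of probe set brightness, and differences were taken on the log2(signal + 55) scale, which understates folds of dim probe sets. Array medians lay between 247 and 401 signal units, so a value under about that level was in the lower part of its array. Between arrays of the same compartment the correlation over genes tested was 0.884 to 0.933 (10 pairs), and between compartments 0.714 to 0.909 (45 pairs). The labels were checked with 5 defining markers for each compartment. All 5 proximal tubule markers were above the array median in all 3 EPT arrays, all 5 collecting duct markers in both CCD arrays and all 5 smooth muscle markers in all 3 USM arrays. In URO 4 of 5 urothelial markers were above the median in every array, and Upk1a was not. Krt5 and Upk2 did not set URO apart. Krt5 had 633 in EPT replicate 3 against 439 in URO replicate 3, and Upk2 had 685 in USM replicate 1 against 630 in URO replicate 3. The URO arrays also carried smooth muscle markers, with a summed signal of 9699 to 57083 against 196363 to 270261 in USM. The loop of Henle markers Umod and Slc12a1 summed to 15167, 178 and 1179 in URO and 3273 and 10332 in CCD. That sum was 538, 1944 and 5267 in EPT and at most 2760 in USM. Collecting duct markers summed to 14222, 27828 and 29924 in URO, where Calb1 alone had 1335, 84.6 and 20842. Leukocyte markers summed to 2854 and 7170 in CCD and to 882, 2890 and 5557 in EPT.

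Hnf4a was higher in EPT than in every other array by its brightest probe set. Probe set 1427001_s_at had signals of 38942, 37589 and 28464 in EPT. It had 1004 and 948 in CCD, 457, 328 and 542 in USM, and 2164, 101 and 4132 in URO. The lowest EPT array was well above the highest other array, and the CCD and USM arrays were close to each other within their compartments. URO was the compartment with a wide spread, holding both the lowest and the highest of the 8 arrays outside EPT. On the log2 scale the means were 15.08 ± 0.25 in EPT, 10.01 ± 0.06 in CCD, 8.93 ± 0.33 in USM and 10.15 ± 2.52 in URO (SD, n = 3, 2, 3 and 3 arrays). As pools of captured tissue, these arrays cannot tell fewer cells of a type from less RNA per cell.

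**Figure D1:**
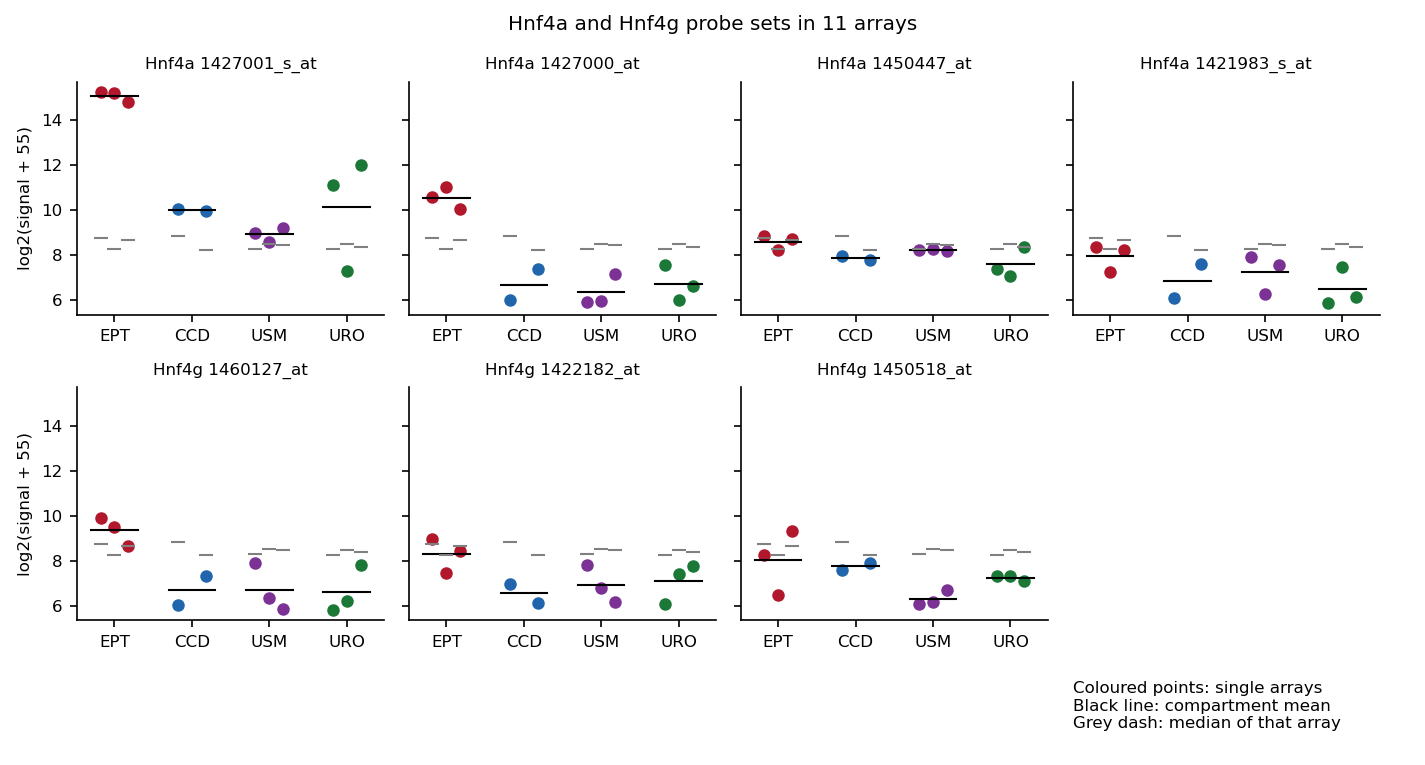
log2(signal + 55) of the Hnf4a and Hnf4g probe sets by compartment, with single arrays as coloured points, the compartment mean as a black line and each array's own median as a grey dash. For Hnf4a 1427001_s_at the EPT points average 15.08 and lie above all 8 others, and URO replicate 2 falls below its array median.

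In the limma fit with 1 probe set per gene, Hnf4a was higher in EPT than in the mean of the other compartments by 5.39 ± 0.72 log2 units (SE, 95% interval 3.83 to 6.94), a fold of 41.9 on that scale, with a Benjamini-Hochberg adjusted p of 0.000234. A gene was called at an adjusted p under 0.05 and an absolute log2 difference of at least 1, which 9.53% of the 13614 genes tested reached in the direction of higher in EPT. By size of the difference Hnf4a ranked 38 among those genes. All 3 EPT arrays lay above all 8 others, as they did for 8.47% of genes tested.

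Hnf4a was also higher in EPT in each pair of compartments. Against CCD the difference was 5.07 ± 0.97 (SE, limma adjusted p = 0.00647), with 3.65% of genes called higher in EPT in that pair. Against USM it was 6.15 ± 0.87 (limma adjusted p = 0.000225), where 12.3% of genes were called higher, and against URO 4.94 ± 0.87 (limma adjusted p = 0.00239), where 6.44% were. Leaving out either CCD array gave 5.11 (adjusted p = 0.0606, without CCD replicate 1) or 5.04 (adjusted p = 0.0660, without CCD replicate 2), so the call against CCD needed both of them.

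The order of the Hnf4a means was EPT, URO, CCD and USM, and no pair of the lower 3 compartments was called. Both CCD arrays lay above all 3 USM arrays. The fit shares 1 estimate of spread over all compartments, so the wide URO values also widen the interval of CCD minus USM. URO minus CCD was 0.14 (95% interval -1.95 to 2.22, limma adjusted p = 0.974), CCD minus USM was 1.08 (-1.01 to 3.16, adjusted p = 0.608) and URO minus USM was 1.21 (-0.66 to 3.08, adjusted p = 0.522). Either-direction calls made up 0.257%, 8.27% and 7.96% of genes in these pairs. Without URO replicate 2, the array with 101, URO minus USM was 2.64 and called (limma adjusted p = 0.00321), and without URO replicate 3, the array with 4132, it was 0.27 (adjusted p = 0.928).

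Proximal tubule markers in the other compartments were measured beside this. The summed signal of Slc34a1, Lrp2, Cubn, Slc13a1 and Slc5a2 was 55369, 92949 and 76858 in EPT, against 1956 and 5741 in CCD, 761, 767 and 858 in USM, and 7182, 2348 and 2984 in URO. Within URO, replicate 2 had the lowest sum and also the lowest Hnf4a, but replicate 1 had the highest sum and replicate 3 the highest Hnf4a. The loop of Henle sum was likewise lowest in URO replicate 2 and highest in URO replicate 1. Of the 5 proximal tubule markers, 2 were above the array median in every CCD array, 1 in every URO array and 0 in every USM array. The part of carried-over tubule tissue in the URO and CCD values was not tested.

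The other Hnf4a probe sets gave smaller differences. Probe set 1427000_at had 1470, 2010 and 994 in EPT. It had 9.44 and 110 in CCD, 5.04, 7.98 and 89.0 in USM, and 136, 9.78 and 43.6 in URO. The EPT arrays again lay above all others, as in 6.77% of probe sets kept, and the others were all under their array medians, so this probe set passed the filter on low values only through EPT and had to differ. Its difference was 3.95 ± 0.46 (SE, limma adjusted p = 0.000182 over 29565 probe sets, of which 5.98% were called higher). An exact two-sided permutation test over all splits of 3 against 8 arrays gave p = 0.0121. That is the smallest it can give and follows from the lack of overlap. The same test gave 0.0121 for 1427001_s_at and for Hnf4g 1460127_at, and 0.0364 to 0.158, unadjusted, for the HNF4 probe sets with overlap.

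Probe set 1450447_at had 406, 241 and 361 in EPT, against 196 and 166 in CCD, 250, 253 and 240 in USM, and 114, 80.9 and 278 in URO. The EPT arrays overlapped with the others, EPT replicate 2 lying below 3 of them. The difference of 0.67 ± 0.35 (95% interval -0.09 to 1.44, limma adjusted p = 0.269) was not called. If x, s and a type probe sets were left out, this one would stand for Hnf4a, and the gene was then not called (adjusted p = 0.222). Probe set 1421983_s_at was under the median of every array and was not kept, with 277, 97.8 and 246 in EPT, against 12.4 and 142 in CCD, 184, 22.9 and 131 in USM, and 4.21, 123 and 15.7 in URO. Its difference without a filter was 1.09 ± 0.50 (limma adjusted p = 0.262). The annotation traces the 2 probe sets that were high in EPT to a single sequence record and the other 2 to the RefSeq mRNA record. The sources used here do not place any of them on a transcript.

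**Figure D2:**
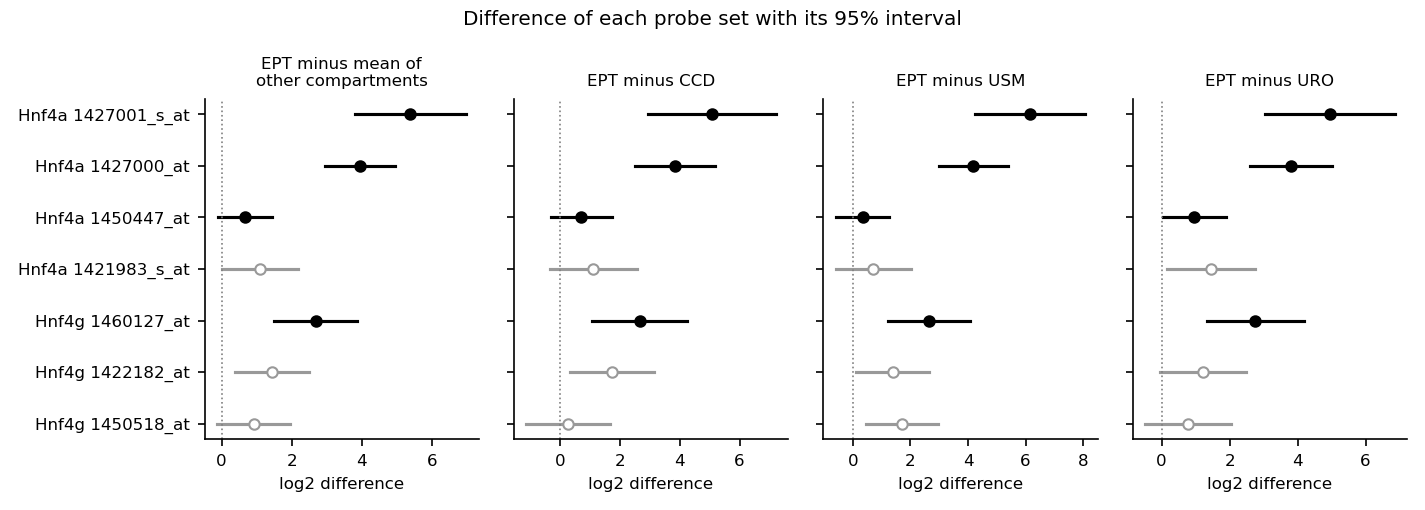
Difference on the log2(signal + 55) scale for each probe set of Hnf4a and Hnf4g, EPT minus the mean of the other compartments and minus each of them, with 95% intervals as bars (filled points passed the filter, open points did not). Against the mean of the others the Hnf4a probe sets range over 0.67 to 5.39 and the Hnf4g probe sets over 0.92 to 2.69.

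Hnf4g, too, was highest in EPT. Its probe set 1460127_at had signals of 901, 675 and 341 in EPT, against 10.98 and 105 in CCD, 181, 26.0 and 2.80 in USM, and 1.46, 17.5 and 165.4 in URO. No array outside EPT reached the lowest EPT array, as in 8.47% of genes tested, and none of them was above its own array median. EPT replicate 3 was also under its median, so the gene passed the filter only through EPT replicates 1 and 2 and had to differ. The log2 means were 9.35 ± 0.65 in EPT, 6.68 ± 0.91 in CCD, 6.69 ± 1.06 in USM and 6.59 ± 1.05 in URO (SD, n = 3, 2, 3 and 3 arrays).

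The difference from the mean of the other compartments was 2.69 ± 0.53 log2 units (SE, 95% interval 1.54 to 3.84), a fold of 6.45, with a limma adjusted p of 0.00374. Its size depended on the pseudocount, since the values outside EPT were low: it was 3.69 with a pseudocount of 12 and 1.70 with 190, called in both. With label batch (arrays that share a date-like string in their labels) as a fixed block it was 2.93 and no longer called (adjusted p = 0.142). Against single compartments it was 2.66 ± 0.71 over CCD (SE, limma adjusted p = 0.0450), 2.65 ± 0.64 over USM (adjusted p = 0.00966) and 2.75 ± 0.64 over URO (adjusted p = 0.0135). The call against CCD was lost in the table of all probe sets (adjusted p = 0.0816) and on leaving out either CCD array, EPT replicate 3 or USM replicate 2, with differences of 2.02 to 3.30. The call against URO was lost without URO replicate 1 (2.37, adjusted p = 0.0600). Without EPT replicate 1 or 2 Hnf4g failed the filter and had no value. CCD, USM and URO lay within 0.10 log2 units of each other, with intervals of -1.55 to 1.53 for CCD minus USM, -1.63 to 1.45 for URO minus CCD and -1.47 to 1.28 for URO minus USM.

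Both remaining Hnf4g probe sets failed the filter. Probe set 1422182_at had 445, 121 and 289 in EPT, against 70.5 and 14.8 in CCD, 166, 53.4 and 15.3 in USM, and 12.5, 116 and 158 in URO. Probe set 1450518_at had 247, 34.2 and 580 in EPT, against 137 and 183 in CCD, 12.3, 15.7 and 47.5 in USM, and 102, 104 and 81.2 in URO. EPT replicate 2 overlapped with other compartments in both probe sets. Without a filter the differences were 1.44 ± 0.49 (limma adjusted p = 0.113) and 0.92 ± 0.48 (limma adjusted p = 0.346), and both are traced to the RefSeq mRNA record, unlike 1460127_at.

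Arrays that shared a label batch were compared where a batch held EPT and another compartment. Hnf4a in EPT exceeded CCD by 5.03 in batch 3 and 5.202 in batch 4, and USM by 6.67 in batch 4. Hnf4g exceeded CCD by 1.74 and 3.86 and USM by 3.56 in the same batches. URO shared no batch with EPT, and with batch as a fixed block the Hnf4a difference over URO was 5.46 with a limma adjusted p of 0.342.

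RefSeq lists 2 starts for Hnf4a on mouse chromosome 2, 40298 bases apart on the plus strand, and holds no promoter for Hnf4g in the table used. In mouse the upstream start is known as the P2 promoter of pancreas and the downstream start as the P1 promoter of liver and kidney. The 250 bases before each start are shown because Hnf4a had the larger difference of the 2 HNF4 genes, with the 50 bases nearest the start in capitals, on build GRCm38.p6. The upstream window is chr2:163506607-163506856 and the downstream window chr2:163546905-163547154, both on the plus strand.
Hnf4a upstream: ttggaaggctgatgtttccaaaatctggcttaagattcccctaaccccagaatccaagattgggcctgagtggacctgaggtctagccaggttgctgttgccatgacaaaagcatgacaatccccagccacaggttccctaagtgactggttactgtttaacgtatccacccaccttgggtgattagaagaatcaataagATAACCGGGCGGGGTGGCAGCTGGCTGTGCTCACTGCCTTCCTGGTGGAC
Hnf4a downstream: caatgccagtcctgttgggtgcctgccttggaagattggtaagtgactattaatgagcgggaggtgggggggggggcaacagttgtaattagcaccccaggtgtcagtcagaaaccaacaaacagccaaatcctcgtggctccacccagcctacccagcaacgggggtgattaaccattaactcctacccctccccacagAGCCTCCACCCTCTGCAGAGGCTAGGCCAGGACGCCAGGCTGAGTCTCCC
Because no probe set is placed on a transcript, the array values cannot tell which start was used.

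HNF4 binding was looked up as letters only. The 300 bases from 250 before to 50 after each RefSeq start were searched on both strands for CAAAGTCCA and for the looser CAAAGNNCA, which contains it. CAAAGTCCA was in 156 of 32851 windows (0.475%), in neither Hnf4a window and in 0 of the 11 windows of the 7 target genes called higher below. CAAAGNNCA was in 2089 windows (6.36%), in neither Hnf4a window and in 2 of those 11 windows, those of G6pc and Gjb1 (18.2%). Over all listed targets it was in 10 of 32 windows (31.2%), called or not. The G6pc match, shown because G6pc is among the called targets, lies 72 to 64 bases before the start at chr11:101367624-101367672 on the plus strand, GRCm38.p6, with the matched letters in capitals.
G6pc: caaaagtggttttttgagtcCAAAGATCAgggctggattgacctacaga
A match describes these letters and is not evidence of binding.

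An antisense transcript, Hnf4aos, lies on the opposite strand with its start 34864 bases after the upstream and 5434 before the downstream Hnf4a start, and it was picked after its values were seen. Its probe set had 571, 833 and 793 in EPT, against 380 and 266 in CCD, 180, 467 and 295 in USM, and 337, 455 and 145 in URO. The EPT arrays lay above all others, as in 8.47% of genes tested, but the difference of 1.13 ± 0.37 log2 units was not called (limma adjusted p = 0.0536). Its window holds a CAAAGNNCA match on the minus strand at chr2:163541846-163541894, matched letters in capitals.
Hnf4aos: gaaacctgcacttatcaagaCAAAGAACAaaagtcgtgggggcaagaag

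The genes most alike to Hnf4a across the 11 arrays were taken by Pearson correlation of log2 values, as a description of arrays that share compartments. They were Aadac (r = 0.982), an esterase, Vil1 (0.981), the actin-bundling villin of microvilli, Keg1 (0.973), Myo7a (0.971), an unconventional myosin, Slc27a2 (0.969), a fatty acid transporter, Cyp4a31 (0.967), of the Cyp4a family of fatty acid hydroxylases, Clec18a (0.967), a C-type lectin, and Fxyd2 (0.967), the gamma subunit of the sodium pump. Over the 8 arrays outside EPT alone their r was 0.855 to 0.916. Vil1 had 488, 6.52 and 790 in URO and Aadac 343, 19.7 and 674, so both were lowest in the same URO array as Hnf4a, replicate 2.

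**Figure D3:**
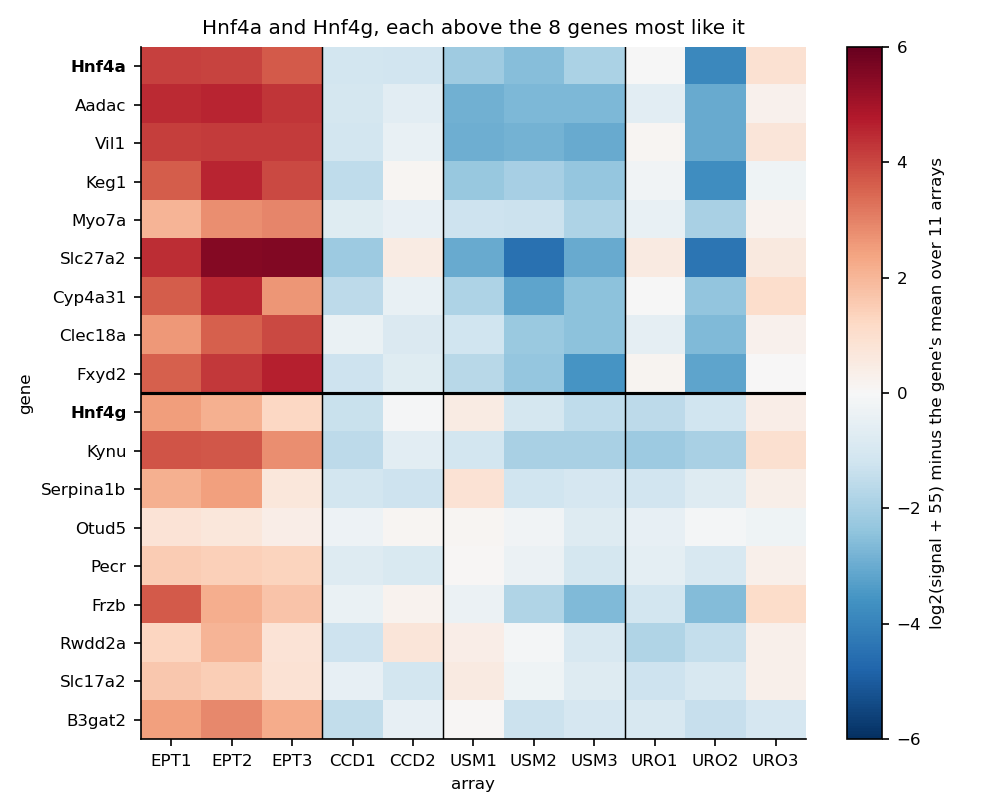
Heat map of log2(signal + 55) minus each gene's mean over 11 arrays, with 1 column per array and Hnf4a and Hnf4g each above the 8 genes most alike to it (red is above the gene's mean, blue below). The genes alike to Hnf4a are red in all 3 EPT arrays and blue in URO replicate 2.

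Hnf4g correlated less with other genes, but its values outside EPT were all under their array medians, which limits what its r can show. Its most alike genes were Kynu (r = 0.951), kynureninase of tryptophan breakdown, Serpina1b (0.932), Otud5 (0.924), a deubiquitinase, Pecr (0.923), a peroxisomal enoyl-CoA reductase, Frzb (0.920), a secreted Wnt antagonist, Rwdd2a (0.918), Slc17a2 (0.917), of the sodium phosphate cotransporter family, and B3gat2 (0.916), a glucuronyltransferase. The count of genes with r over 0.9 was 143 for Hnf4a and 16 for Hnf4g. Hnf4a and Hnf4g correlated at r = 0.828 and rho = 0.573 over all 11 arrays, but at r = 0.270 over the 8 arrays outside EPT, and Hnf4g ranked 398 of 13613 genes by likeness to Hnf4a. Serpina1b belongs to a family of near-identical copies, so its probe set may read several of them.

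Textbook HNF4 target genes of liver and intestine were higher in EPT in part. Of 32 listed, 27 had a probe set, 16 passed the filter, and 7 were called higher in EPT and 0 lower by limma, with a median difference of 0.52 against 0.05 over all genes. At an unadjusted limma p under 0.05, 7 were higher and 0 lower, but the share of all genes at that threshold was not taken. Over all genes 9.53% were called higher and 6.41% lower. Of the 7 targets, 4 passed the filter only with the EPT arrays and had to differ. Over all genes that held for 197 of the 1297 called higher. The called targets included genes of glucose handling, namely Slc2a2, the glucose transporter GLUT2, Pck1, of gluconeogenesis, Pklr, a pyruvate kinase, and G6pc, glucose-6-phosphatase. Of the 2 Pklr probe sets kept, 1 was called, and the other was at 0.52. Ambp, precursor of alpha-1-microglobulin, Gjb1, a connexin, and F10, coagulation factor X, were also called.

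Slc2a2 had 19421, 25940 and 13690 in EPT, against 13.6 to 1781 in the others, a difference of 6.49 ± 0.87 (SE, limma adjusted p = 0.000234). Ambp had 4656, 5226 and 6548 in EPT, against 7.85 to 208 elsewhere, at 5.42 ± 0.42 (adjusted p = 5.22e-06). Pck1 had 783, 1546 and 1070 in EPT, against 8.66 to 137, at 3.70 ± 0.33 (adjusted p = 1.12e-05). In these 3 genes EPT and the rest did not overlap, as in 8.47% of all genes, but Ambp and Pck1 passed the filter only with the EPT arrays and had to differ. Gjb1 was called at 2.19 ± 0.37 (adjusted p = 0.00129) although CCD replicate 1, at 1779, was above all EPT arrays, which had 1199, 990 and 822. G6pc, at 2.69 ± 0.55 (adjusted p = 0.00466), overlapped too, since USM replicate 3 had 268 and EPT replicate 1 had 257, and it and F10 likewise passed only with EPT. With label batch as a fixed block Slc2a2 (5.54, adjusted p = 0.0750), Pklr (2.19, 0.0983) and F10 (1.23, 0.391) were no longer called.

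The 9 measured targets that were not called included Ttr, transthyretin, at 0.38 (adjusted p = 0.803) and Mttp, the microsomal triglyceride transfer protein, at -0.33 (adjusted p = 0.654), both picked after their values were seen. Apoa1, Apoa4, Apob, Fabp1 and Cyp7a1, apolipoproteins, a fatty acid binding protein and the first enzyme of bile acid synthesis, failed the filter. Hepatocyte markers bear on this list. Alb was 559, 446 and 546 in EPT and 225 to 560 elsewhere, and Ahsg and Fgb were under the median of every array, while Afp was 54356, 62225 and 28032 in EPT and 86.0 to 5853 elsewhere. Whether liver tissue took part was not tested.

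Proximal tubule differentiation genes, mostly transporters and brush border proteins, were mostly called higher in EPT. All 35 had a probe set, 33 passed the filter and 31 were called higher, with a median difference of 4.54, beside 9.53% called higher and a median of 0.05 over all genes. Of the 31, 8 passed the filter only with EPT and had to differ, with Slc13a1 and Slc22a2 among them, beside 197 of 1297 over all genes. Without x, s and a type probe sets Slc13a1 fell to 1.23 and lost its call. Slc17a1, a phosphate and organic anion transporter, was 6.29 higher (limma adjusted p = 3.41e-06), Slc47a1, an organic cation exporter, 6.33 (6.96e-06) and Cubn, the cubilin endocytic receptor, 5.05 (5.22e-06). Slc13a1, a sulphate transporter, was 5.99 higher (7.02e-06), Slc22a2, an organic cation transporter, 5.31 (8.23e-06) and Slc3a1, the heavy subunit of a cystine transporter, 4.74 (7.57e-06). Slc7a8, an amino acid transporter subunit, and Dab2, an endocytic adaptor, were the 2 measured members not called, at 0.88 and 1.78.

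**Figure D4:**
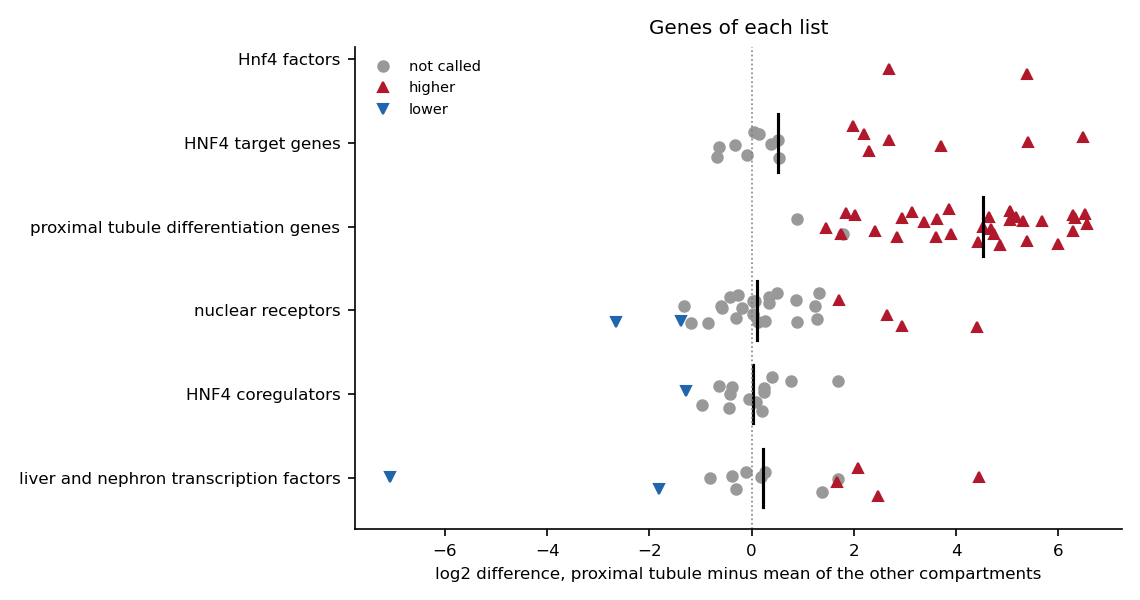
Log2 difference of EPT minus the mean of the other compartments for the genes of each list that passed the filter, with 1 point per gene and a bar at the list median (none for the 2 HNF4 genes). Triangles mark genes called higher or lower. The proximal tubule differentiation genes have a median of 4.54 and the HNF4 targets 0.52.

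Of 34 other nuclear receptors listed, 28 were measured, with 4 called higher, 2 lower and a median of 0.10, beside 9.53% of all genes called higher, 6.41% lower and a median of 0.05. Vdr, the vitamin D receptor, had 639, 838 and 547 in EPT and 21.4 to 145 elsewhere, at 2.95 ± 0.34 (limma adjusted p = 7.84e-05), and passed the filter only with EPT. Esrrg, an estrogen-related receptor, had 29296, 34085 and 33220 in EPT and 13.3 to 12462 elsewhere, at 4.41 ± 0.58 (adjusted p = 0.000193), with CCD at 7319 and 12462 next in level. Nr1h4, the bile acid receptor, was 2.65 ± 0.46 higher (adjusted p = 0.00146) and Esrra, another estrogen-related receptor, 1.71 ± 0.34 (adjusted p = 0.00373). Of the probe sets kept, 1 of 2 was called higher for Esrra and 2 of 3 for Esrrg. With label batch as a fixed block Vdr alone of the 4 kept its call, Esrrg being at 2.79 (adjusted p = 0.0791), Nr1h4 at 2.84 (0.0563) and Esrra at 1.81 (0.138).

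Pparg, the receptor of adipocyte differentiation that is also known in urothelium, was lower in EPT, with 85.3, 59.2 and 23.0 against 3695, 7450 and 1376 in URO and a difference from the mean of the rest of -2.66 ± 0.62 (limma adjusted p = 0.0107). The EPT arrays overlapped with USM, which had 21.6, 204 and 377, and EPT minus USM was -0.93. CCD had 921 and 148. Rarg, a retinoic acid receptor, was lower by -1.38 ± 0.43 (adjusted p = 0.0446) but was not called in the table of all probe sets. With label batch as a fixed block Pparg was at -2.24 (adjusted p = 0.282) and Rarg at -0.12 (adjusted p = 0.942). Picked after their values were seen, Nr2f1 and Nr2f2, which bind similar sites, were at -0.31 and 0.34 (adjusted p = 0.711 and 0.685), and Rxra, which HNF4 proteins do not need as a partner, was at -0.85 (adjusted p = 0.0858).

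**Figure D5:**
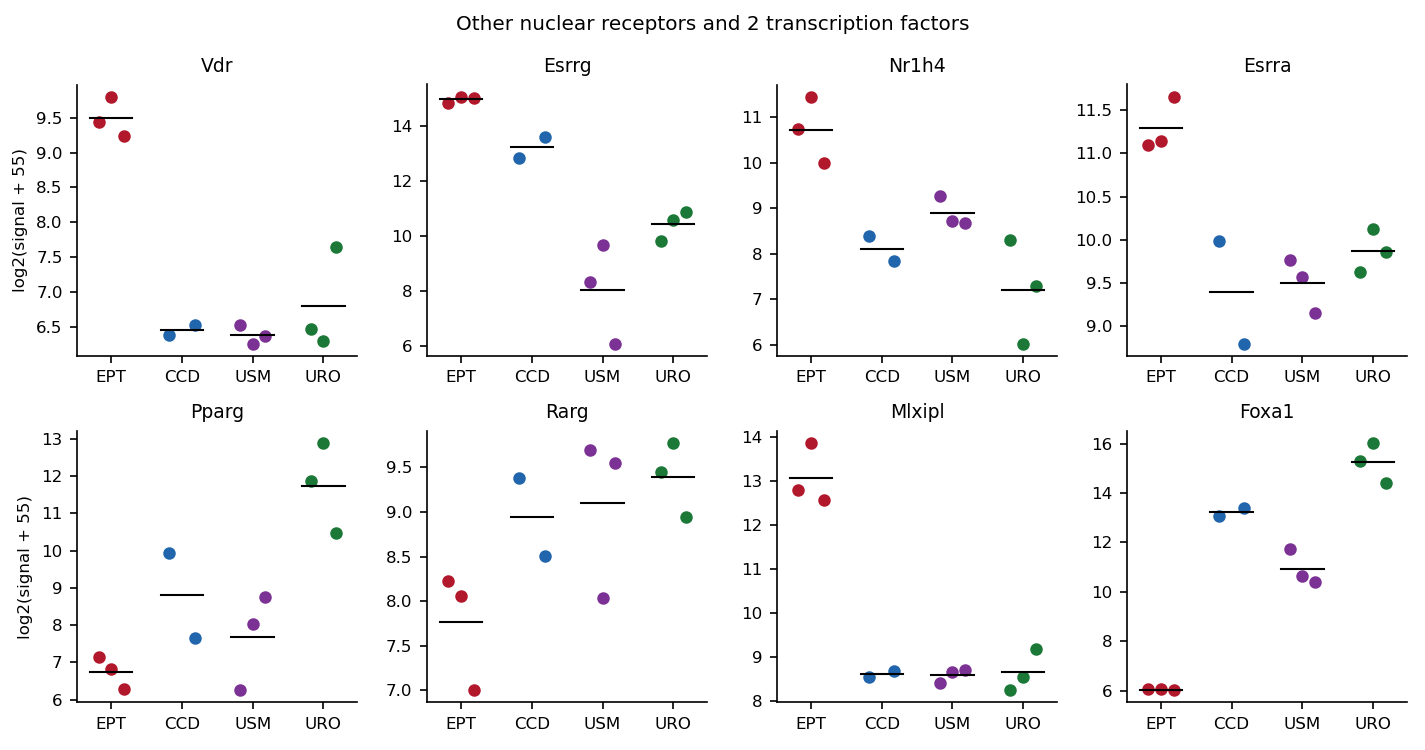
log2(signal + 55) by compartment of the 6 nuclear receptors called in EPT and of Mlxipl and Foxa1, with single arrays as points and compartment means as lines. The vertical axis differs between panels. Vdr and Mlxipl are high in EPT alone, Esrrg has CCD next to EPT, and Pparg and Foxa1 are highest in URO.

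HNF4 coregulators, which carry the receptor's signal to chromatin and the polymerase, gave 1 call. Of 14 measured, 0 were called higher by limma and 1 lower, with a median of 0.02, and 1 of 14 is near the 6.41% of all genes called lower. At an unadjusted limma p under 0.05, 2 were higher and 2 lower, again without a share of all genes at that threshold. The call was Med14, a Mediator subunit, at -1.29 ± 0.32 (limma adjusted p = 0.0144), which 1 of its 5 probe sets carried and which was lost with label batch as a fixed block (-1.27, adjusted p = 0.286). Ppargc1a, a coactivator of gluconeogenic genes picked after its values were seen, was 1.70 ± 0.60 (adjusted p = 0.0735), with 17583, 11549 and 4984 in EPT and 11681 and 16345 in CCD, so EPT and CCD overlapped.

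Of the liver and nephron transcription factors 14 were measured, and 4 were called higher and 2 lower, with a median of 0.22, beside 9.53% and 6.41% of all genes and a median of 0.05. Mlxipl, the glucose-responsive factor ChREBP, had 7086, 14860 and 6075 in EPT and 250 to 528 elsewhere, at 4.46 ± 0.35 (limma adjusted p = 5.22e-06). Pax8, of the nephron lineage, was 2.09 higher (adjusted p = 0.00097, with 1 of its 2 probe sets called) and Irx3, a factor of nephron patterning, 2.47 (0.00414). Pou3f3, a POU factor of nephron development, was called at 1.67 (0.00769). Its EPT values of 18957, 21347 and 14537 were all below CCD, at 22177 and 43429, and overlapped with URO. For Pou3f3 EPT minus CCD was -0.78 and EPT minus URO 0.28, against 5.51 for EPT minus USM. Foxa1, a pioneer factor of liver and urothelium, had 11.6, 12.4 and 10.5 in EPT, against 40706, 65896 and 21839 in URO, and was lower than the mean of the rest by -7.08 ± 0.39 (adjusted p = 5.97e-07). Gata6, of mesenchyme and endoderm, was lower than the mean of the rest by -1.80 ± 0.43 (adjusted p = 0.0119), with USM highest at 4364, 3734 and 6574. Its EPT values of 351, 256 and 429 overlapped with CCD and URO, and EPT minus CCD was -0.45. Of its 3 probe sets 1 was called lower. With label batch as a fixed block Irx3 was at 2.09 (adjusted p = 0.201), Pou3f3 at 1.16 (0.358) and Gata6 at -1.61 (0.312), none of them called.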

How the data were processed

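Gene expression of 4 microdissected compartments was read from the authors' deposited table of 11 arrays, which holds a linear intensity per probe set (45101 in all). GCOS, the Affymetrix software, made it per the submitters' processing notes, version not stated. Each array had a mean of 1500 without the lowest and highest 2% of probe sets, so that scaling was kept. The table used here has no detection calls. Compartments were taken from the labels. Replicate numbers follow accession order and pair nothing, and the meaning of the date-like label part used as label batch is not stated.

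Values were taken to log2(signal + 55), where 55 is about the 20th percentile of all signals. Probe sets above their array's median in at least 2 arrays were kept, 29565 in all. A gene was read from its probe set with the highest mean, leaving 13614 genes. Of all probe sets, 64 were controls, 34945 had 1 symbol, 932 several and 9160 none in the annotation used. Of 34741 symbols checked by Entrez identifier against RefSeq, 0 changed. The model was fitted in R 4.3.3 with limma 3.58.1, 1 mean per compartment and all 11 arrays together, with 7 residual and 6.38 prior degrees of freedom, and Benjamini-Hochberg adjusted p-values within each comparison. Single probe sets were also compared with an exact two-sided permutation test over all splits of 3 against 8 arrays.

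The HNF4 genes and all gene lists were chosen with earlier results of these data known. From each list the rule named up to 6 called genes by moderated t and up to 3 called the other way, and for likeness the 8 genes with the highest r, skipping clone names. Alternatives tried were pseudocounts of 12 and 190, quantile normalization, a stricter filter (75th percentile) or none, eBayes with trend and robust options, a fixed or random block for label batch, averaging of probe sets per gene, leaving out x, s and a type probe sets, and leaving out each array. The fit was tested on simulated data for EPT against the rest. The simulated noise was normal, with 1 spread per gene in all compartments and no label batch. The rates thus do not cover unequal spreads or batch. Among 13614 genes it recovered 30% of 100 genes changed by a log2 of 1.5 and 98% of 100 changed by 3, with 0 in the wrong direction and 4 false calls. Figures came from matplotlib 3.10.9 and pandas 2.3.3 under Python 3.11.15.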

Additional observations from a re-analysis of the deposited data

How the results depend on the processing

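Over 80 results and 1622 recomputed values, 0 called results changed direction. The Hnf4a difference of EPT from the rest kept its call in all alternatives with a test but 1, the one without x, s and a type probe sets, where Hnf4a is read from 1450447_at. There it was 0.67 against the rest, 0.70 against CCD, 0.35 against USM and 0.96 against URO, and no receptor was called lower (0). Probe set 1427000_at ranged over 2.78 to 4.99 in 19 alternatives, all called, but it passes the filter only through EPT and had to differ. Hnf4g against CCD lost its call under quantile normalization (2.54), a pseudocount of 12 (3.54), no filter (2.66) and trend and robust options (2.66). Within label batch 3 Hnf4g in EPT exceeded CCD by 1.74, and within batch 4 it exceeded the mean of CCD and USM by 3.71. Neither batch holds URO. With label batch as a fixed block Hnf4a against URO (5.46), probe set 1427001_s_at (5.73) and Hnf4g by gene or by probe set 1460127_at against the rest (2.93), CCD (2.65), USM (2.96) and URO (3.20) lost their calls. That block left 4 targets, 1 receptor and 2 transcription factors higher, 0 receptors, 0 coregulators and 1 transcription factor lower, and 273 genes higher and 133 lower among all genes. It also ended the calls of 17 of 41 named genes, among them Serpina1b (3.28), Pecr (1.98), Frzb (3.88), Rwdd2a (1.33) and Slc17a2 (2.21).

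Of the other counts, targets higher were 3 with the 75th percentile filter, at which Hnf4g had no value. Receptors lower were 1 with either other pseudocount, with no filter and with the stricter filter. Coregulators lower were 2 with quantile normalization and 0 with the mean of probe sets, and coregulators higher were 1 with a pseudocount of 190 and with trend and robust options. Leaving out single arrays gave 4.99 to 5.22 for Hnf4a against CCD, 2.02 to 3.30 for Hnf4g against CCD, 2.37 to 3.35 for Hnf4g against URO and 0.27 to 2.64 for Hnf4a in URO minus USM. The counts were then 0 to 2 receptors lower, 0 to 1 coregulators higher and 1 to 2 lower, 1 to 2 transcription factors lower, and 704 to 1319 genes higher and 502 to 929 lower among all genes. The lowest of the last counts came without EPT replicate 2, and without EPT replicate 3 the genes higher were 806. The cause of these changes was not tested. No paired analysis was possible because the replicate numbers follow accession order and the numbers in the titles repeat within a compartment, so that label batch is the only block that was fitted. Signals under the array median limit what can be said of Hnf4g outside EPT.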
